A study of Mus musculus with 40 samples.

Results

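The genes described here encode the proteins of the cytosolic ribosome. They were chosen by name from the platform's gene symbols, as symbols that start with Rpl or Rps and a digit, or equal Rpsa, Rplp0, Rplp1 or Rplp2, with the ribosomal S6 kinases and pseudogenes left out. Of the 66 symbols so caught, 58 had a probe detected at a detection p under 0.01 on at least 4 arrays, and these 58 are the genes counted below, of 7958 genes tested in all. They comprise 31 core genes of the large (60S) subunit, 22 core genes of the small (40S) subunit and the 4 paralogs Rpl22l1, Rpl36al, Rpl7l1 and Rps27l. The name rule also caught Rps19bp1, which encodes no ribosomal protein but a regulator of the deacetylase SIRT1. The 8 symbols that were not detected were Rpl14, Rpl17, Rpl3l, Rpl39l, Rpl6, Rplp2, Rps23 and Rps23rg1.

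Each mature ribosome holds 1 copy of most of these proteins, so cells make them in matched amounts. Their mRNAs are among the most abundant of a cell and begin with a run of pyrimidines, the TOP motif, through which the nutrient-sensing kinase mTORC1 controls their translation. In liver, fasting and refeeding change the content of ribosomes, and much of that control acts on translation and turnover of ribosomes, which mRNA levels do not show.

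The livers came from 40 male mice of the inbred strain C57BL/6J, which had arrived at 6 weeks of age and were given 1 of 2 diets from 5 months of age. The labels used here give no age or hour of tissue collection. The WIS diet, made of purified ingredients and rich in sucrose, held 3.927 kcal per gram, 46% of them in sucrose and 24.4% in fat. The NIA diet, low in both, held 3.418 kcal per gram, 7.6% of them in sucrose and 17.7% in fat. Each was given under caloric restriction by 30% (CR), as a meal without that restriction (MF), or ad libitum (AL). CR and MF mice received 1 portion a day at 3 pm, fixed in size from 14 months of age, CR mice on the cage floor and MF and AL mice in the hopper. Per the labels, MF-NIA mice ate as many calories as MF-WIS and AL-WIS mice, and AL-NIA mice ate the most. The groups held 10 CR-WIS, 4 MF-WIS, 6 AL-WIS, 9 CR-NIA, 6 MF-NIA and 5 AL-NIA arrays, 1 array per liver.

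RNA was measured on an Illumina BeadChip, a chip of beads whose attached oligonucleotides bind labelled cRNA. A level below is the deposited score times 1.51, in log2 units above the mean of all probes of that array, and a difference is the first-named group minus the second. The factor is the same for every array, while the SD of log2 signal ran from 1.38 to 1.66 between arrays, so these units are approximate. Levels of different genes are not set against each other, because probes differ in brightness. On 34 arrays the detection values could be used, and each had 8725 to 11199 of its 25697 probes detected. Precision is limited by the number of arrays. Of the 15 hepatocyte markers listed, 12 were measured, and 11 of them were detected on all 34 arrays, but the albumin probe was near background and detected on 29. The scores of the library labelled CR-NIA replicate 1 matched no signal column of its group. AL-WIS replicate 1 stood apart with a macrophage marker median 3.79 above the markers' own means. It, the library labelled CR-NIA replicate 1 and MF-WIS replicate 4 were left out together in 1 alternative, whose counts stand beside the main ones below. MF-WIS replicate 4 stood apart only by the ribosomal protein genes themselves (median deviation from their own means -0.01, the nearest of its group -0.26). Leaving that liver out lowers the MF-WIS levels, so counts of that alternative that use MF-WIS are partly set by the choice. The fit shares 1 spread per gene over all groups, so its counts in the other comparisons also depend on which livers were left out. Without AL-WIS replicate 1 alone, 35 genes were called between CR and MF on NIA.

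Of the 58 genes, 54 were detected on every array read. Rpl21 was detected on 5, Rps15a on 7 and Rpsa on 5 of the 34 arrays, so these 3 probes were mostly near background. They stay in the counts and medians over the 58 genes and in the plots, and their differences are not given singly. The genes lie on 16 chromosomes, with 9 on chromosome 7 and 6 on chromosome 9. Many ribosomal protein genes have processed pseudogenes of nearly the same sequence, and probes of Rps27 and Rps27l, Rpl36a and Rpl36al, or Rpl22 and Rpl22l1 could share copies, so the gene behind a probe is uncertain in these cases.

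The start regions of 5 of the genes called between CR and MF are printed as examples: Rps3a1 and Rpl28, called on both diets, and Rps9, Rpl36a and the paralog Rps27l, called on NIA and again in a further comparison below. Sequences are from RefSeq on GRCm38.p6, each of 150 bases, with 120 before and 30 after the annotated start, read on the gene's own strand. Capitals mark a match to CTTTC within 50 bases of the start on the gene's strand, or to an ETS-type motif, CCGGAAG, on either strand. They also mark GGGCGG, the string of a GC box, and TATAAA, that of a TATA box, on either strand. In Rpl36a TATAAA lies within the 30 bases after the annotated start, so it is marked as a string only.
Rps9, chr7:3703921-3704070, plus strand: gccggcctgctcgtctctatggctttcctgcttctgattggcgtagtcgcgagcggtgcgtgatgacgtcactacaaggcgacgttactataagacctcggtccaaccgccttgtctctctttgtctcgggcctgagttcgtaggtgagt
Rpl36a, chrX:134585534-134585683, plus strand: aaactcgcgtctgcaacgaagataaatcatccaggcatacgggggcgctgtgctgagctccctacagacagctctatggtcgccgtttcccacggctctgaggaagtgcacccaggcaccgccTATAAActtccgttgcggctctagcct
Rps3a1, chr3:86142639-86142788, minus strand: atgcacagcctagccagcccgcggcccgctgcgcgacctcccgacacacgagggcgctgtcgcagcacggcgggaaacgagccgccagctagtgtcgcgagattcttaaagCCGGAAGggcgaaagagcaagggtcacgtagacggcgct
Rpl28, chr7:4792845-4792994, plus strand: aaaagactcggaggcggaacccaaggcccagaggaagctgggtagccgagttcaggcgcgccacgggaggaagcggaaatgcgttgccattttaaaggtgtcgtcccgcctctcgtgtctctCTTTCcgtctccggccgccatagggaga
Rps27l, chr9:66945966-66946115, plus strand: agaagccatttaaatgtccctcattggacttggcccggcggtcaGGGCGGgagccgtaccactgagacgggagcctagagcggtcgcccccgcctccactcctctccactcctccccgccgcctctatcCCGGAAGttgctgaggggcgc

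The table of start regions held 60 windows for 50 of the 58 genes, beside 32851 windows of all genes. CTTTC or CTTTT, as in a TOP motif, lay within 50 bases of the start on the gene's strand in 61.7% of the ribosomal protein windows and in 21.8% of all windows. CCGGAAG lay in 33.3% against 8.86% of the 300-base windows, GGGCGG in 65% against 35.7%, and AAGATGGC, the YY1 motif, in 13.3% against 2.75%, each on either strand. TATAAA lay in 10% against 13.6%, and CACGTG, the E-box that MYC and clock factors bind, in 11.7% against 7.15%. Windows of 1 gene can overlap, as can CTTTC and CTTTT, and a match is a string of letters, not a measured site.

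Across the 9 comparisons most differences of the ribosomal protein genes were positive in CR against MF, on both diets, and negative in MF against AL. In CR against MF on NIA, 29 of the 58 genes were called higher and 1 lower. In the other 8 comparisons between 0 and 9 were called. A call is an adjusted p under 0.05 from limma, a linear model with moderated variance, fitted to all 40 arrays with Benjamini-Hochberg adjustment over all 7958 genes. The comparisons CR against MF and MF against AL share the MF arrays, and CR against AL shares arrays with both, so they are not independent of each other.

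**Figure D1:**
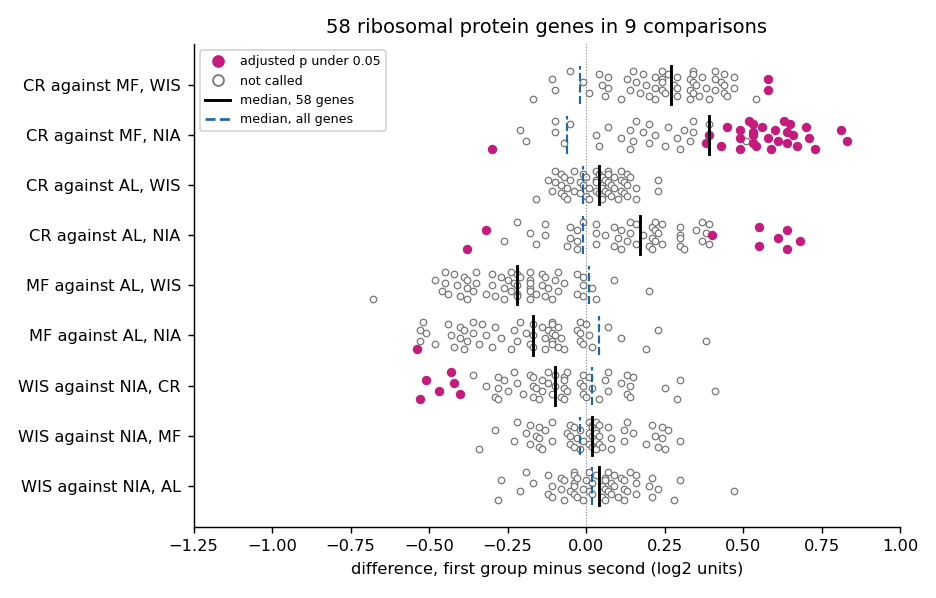
Differences of the 58 genes in log2 units, 1 point per gene, in each of the 9 comparisons. Filled points were called at an adjusted p under 0.05, black lines are the medians of the 58 genes and dashed lines the medians of all 7958 genes. The points of CR against MF lie mostly to the right of 0, with medians of 0.27 on WIS and 0.39 on NIA, and those of MF against AL mostly to the left.

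The median of the 58 genes in a liver, each gene taken as its deviation from its mean over the 40 arrays, gives the level of the whole set. In CR-NIA livers this median was at lowest -0.04, in the middle 0.14 and at highest 0.45, and in MF-NIA livers -0.49, -0.16 and 0.02. The CR-NIA and MF-NIA ranges overlapped between -0.04 and 0.02. CR-WIS livers had medians of -0.23, 0.03 and 0.34 as lowest, middle and highest, against -0.29, -0.29, -0.26 and -0.01 in the 4 MF-WIS livers. MF-WIS replicate 4, at -0.01, lay within the CR-WIS range, and the other 3 MF-WIS livers lay below every CR-WIS liver. AL-NIA livers had 0.20, -0.09, -0.15, 0.05 and -0.07. AL-WIS livers ranged from -0.36 to 0.56 around a middle of -0.06, and the highest, 0.56, was AL-WIS replicate 1, the library with the high macrophage markers.

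**Figure D2:**
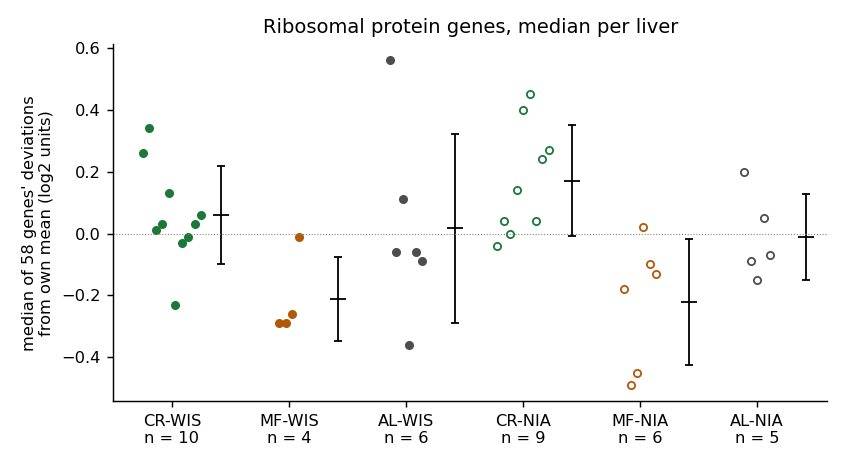
Median deviation of the 58 genes from their own means, in log2 units, with 1 point per liver, filled for WIS and open for NIA. Crossbars give the group mean and SD: 0.06 ± 0.16 in CR-WIS, -0.21 ± 0.14 in MF-WIS, 0.02 ± 0.31 in AL-WIS, 0.17 ± 0.18 in CR-NIA, -0.22 ± 0.20 in MF-NIA and -0.01 ± 0.14 in AL-NIA livers, so both MF groups have the lowest means.

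The comparison of CR with MF sets 2 once-daily portions against each other, a restricted and a larger one. On NIA, 29 ribosomal protein genes were higher in CR and 1, Rpl7a, was lower, where 15.3% of all genes were called in either direction, 5.79% higher and 9.54% lower. The median difference was 0.39 over the 58 genes and -0.06 over all genes, and 51 of the 58 differences were positive, where 39.3% of all genes had a positive one. Of the 22 small-subunit core genes 12 were higher and none was lower, with a median difference of 0.51. Of the 31 large-subunit core genes 15 were higher and 1 was lower, with a median of 0.39. The paralogs Rps27l and Rpl36al were higher, and Rpl22l1 and Rpl7l1 were not called.

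The size of the NIA count depended on how arrays were scaled. After quantile normalization of the scores 9 genes were higher and 1 lower in CR, with a median difference of 0.21, and quantile normalization or neqc of the signals each gave 16 higher and 1 lower. Centring the log2 signals on the median gave 34 higher and 1 lower. That scaling put the median of all genes at 0.11, and the ribosomal protein genes 0.28 above it. The scalings of signals used only the 34 arrays with usable signals, among them 8 CR-NIA and no AL-NIA arrays, so their samples differed too. Leaving out the 3 libraries that stand apart gave 37 higher and 2 lower.

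Brightness and array spread moved with the same comparison. The SD of the log2 signal over probes was 1.38 to 1.56 on CR-NIA and 1.52 to 1.66 on MF-NIA arrays, and the median of the kept probes was 0.35 to 0.63 on CR-NIA and 0.62 to 0.76 on MF-NIA arrays. Among the 43 ribosomal protein genes whose mean level lay over 4, a cut chosen after the values were seen, 28 were higher in CR-NIA than in MF-NIA livers, 65.1%, with a median of 0.52. Among the 651 other genes above that level 24.6% were higher, with a median of 0.25. Differences were positive in 95.3% of the 43 and in 82.2% of the 651. After quantile normalization 7 of the 43 (16.3%) and 6.76% of the 651 were higher, with medians of 0.23 and 0.02, and 79.1% and 53.3% were positive. Hepatocyte markers had a median difference of 0.31 in this comparison, 2 of the 12 measured being higher and none lower, and their median deviation ran from -0.37 to 0.96 on CR-NIA and from -0.43 to -0.05 on MF-NIA arrays. The 10 macrophage, 7 neutrophil, 5 T and B cell and 10 stellate cell markers measured held no call in either direction, and 1 of 11 endothelial markers was lower. In bulk liver, fewer cells of a type and less RNA per cell cannot be told apart. The part of array scale and cell makeup in the ribosomal protein differences was not tested.

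**Figure D3:**
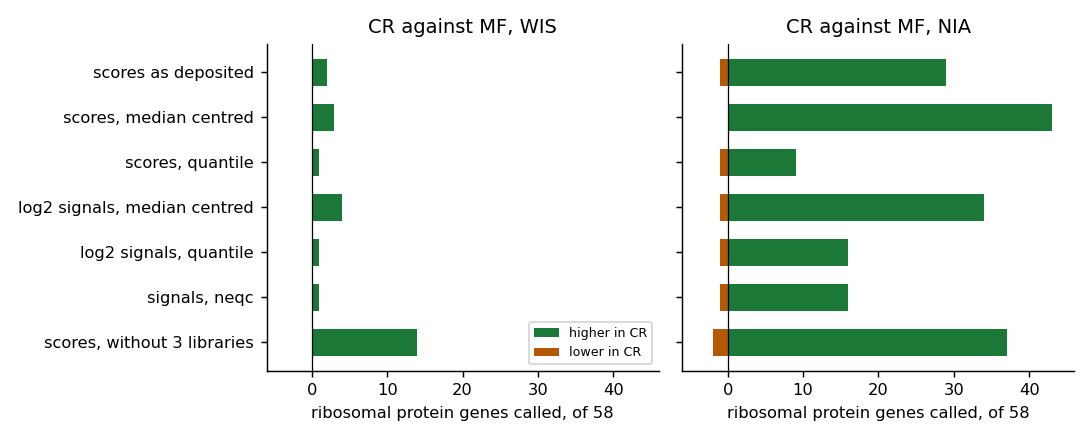
Number of the 58 genes called higher (right of 0) or lower (left of 0) in CR than in MF livers, on WIS and on NIA, under 6 scalings and without the 3 libraries that stand apart. On NIA the count of higher genes runs from 9 with quantile-normalized scores to 43 with median-centred scores, and on WIS from 1 to 14.

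The small-subunit genes held the largest single changes on NIA. Rps14, whose protein sits on the platform of the small subunit near the mRNA, had levels of 6.85, 7.01 and 7.93 (lowest, middle and highest) in CR-NIA livers, against 6.04, 6.53 and 6.58 in MF-NIA livers. All 9 CR-NIA livers lay above all 6 MF-NIA livers. The difference was 0.81 ± 0.15 (SE), a 1.76-fold higher level, with a limma adjusted p of 0.000384. Rps24, needed for processing of the small subunit's rRNA, had 6.14, 6.70 and 7.19 in CR-NIA and 5.51, 5.82 and 6.27 in MF-NIA livers. Its ranges overlapped by 1 CR-NIA liver. The difference was 0.83 ± 0.17 (SE; limma adjusted p = 0.000864). Over the alternatives run, these differences ran from 0.44 to 0.98 for Rps14 and from 0.51 to 1 for Rps24.

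Rps9, a protein of the mRNA entry side whose start region is shown above, had 5.57, 6.04 and 6.76 in CR-NIA and 5.15, 5.45 and 5.77 in MF-NIA livers. The ranges overlapped, with 7 of 9 CR-NIA livers above every MF-NIA liver, and the difference was 0.65 ± 0.13 (SE; limma adjusted p = 0.000647). For Rps9 the alternatives gave 0.35 to 0.81. Its other kept probe gave 0.42 with an adjusted p of 0.0708 over all probes, and so was not called. Rps21 and Rps25, both small-subunit proteins of the eukaryotic ribosome, were higher by 0.67 and 0.64, with limma adjusted p of 0.000748 and 0.00138. Rps3a1, which encodes the mouse S3a protein on the mRNA exit side, was higher by 0.54 (limma adjusted p = 0.00247). After quantile normalization of the scores the limma adjusted p of Rps21 was 0.0595.

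Rps6, the protein that S6 kinases phosphorylate downstream of mTORC1, went with neither group. It had 4.67, 5.00 and 5.27 in CR-NIA and 4.74, 5.22 and 5.34 in MF-NIA livers, a difference of -0.10 ± 0.14 (SE; limma adjusted p = 0.661). The ranges overlapped almost whole. Rps7, Rps13 and Rps2 also had adjusted p over the threshold, at 0.575, 0.66 and 0.462, with differences of 0.14, 0.11 and 0.18.

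**Figure D4:**
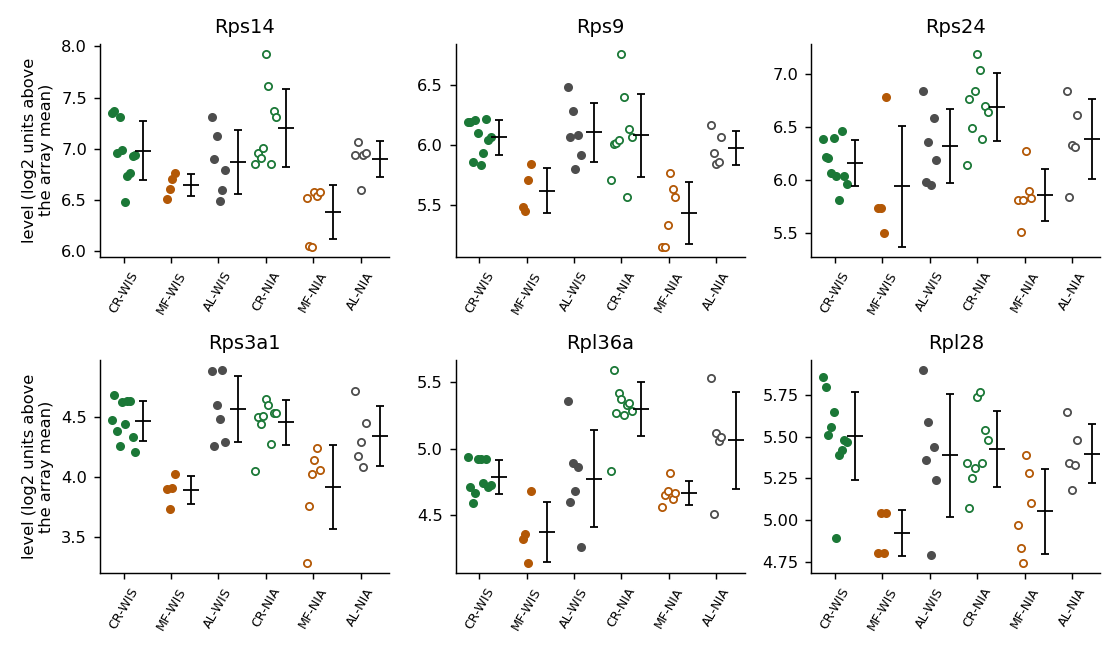
Levels of Rps14, Rps9, Rps24, Rps3a1, Rpl36a and Rpl28 in each liver, in log2 units above the array mean, filled for WIS and open for NIA, with crossbars for group mean and SD. Each panel has its own vertical scale that does not start at 0. Rps14 and Rpl36a in CR-NIA livers lie above all MF-NIA livers, and Rps3a1 in CR-WIS livers above all MF-WIS livers.

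Among large-subunit genes, Rpl36a had 4.83, 5.33 and 5.59 in CR-NIA and 4.56, 4.66 and 4.82 in MF-NIA livers. Every CR-NIA liver lay above every MF-NIA liver, the lowest being the library labelled CR-NIA replicate 1. The difference was 0.63 ± 0.12 (SE; limma adjusted p = 0.000566), and 0.0528 was the adjusted p after quantile normalization of the scores. Its paralog Rpl36al was higher by 0.43 ± 0.15 (SE; limma adjusted p = 0.0426). There were 6 genes with all CR-NIA livers above all MF-NIA livers, Rps14, Rps26, Rpl19, Rpl35, Rpl36a and Rpl37, where 0.854% of all genes showed this.

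Rpl5 binds the 5S rRNA and, when free of ribosomes, the p53 inhibitor MDM2. It had 6.14, 6.39 and 6.93 in CR-NIA and 5.34, 5.82 and 6.16 in MF-NIA livers, overlapping by 2 CR-NIA livers, and differed by 0.66 ± 0.14 (SE; limma adjusted p = 0.00113). That difference ran from 0.35 to 0.82 over the alternatives run for it. Rpl35a, mutated in Diamond-Blackfan anaemia in humans, and Rpl34 were higher by 0.53 and 0.64, with limma adjusted p of 0.000697 and 0.00122. The Rpl35a call ended with quantile normalization of scores or signals and with neqc, where its adjusted p reached 0.118. Of the 6 genes measured at the peptide exit tunnel and its mouth 4 were higher and none lower, with a median of 0.44. Rpl39, a small protein lining that tunnel, was higher by 0.73 ± 0.16 (SE; limma adjusted p = 0.00161).

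In the P stalk, the arm that recruits elongation factors, Rplp1 was higher by 0.53 ± 0.15 (SE; limma adjusted p = 0.0156). Rplp0, the stalk's base, had 0.17, 0.45 and 0.75 in CR-NIA and 0.05, 0.26 and 0.42 in MF-NIA livers, and its difference of 0.20 was not called (limma adjusted p = 0.365). Rpl7a ran the other way. It had 3.02, 3.32 and 3.58 in CR-NIA and 3.35, 3.59 and 3.79 in MF-NIA livers, a difference of -0.30 ± 0.10 (SE; limma adjusted p = 0.04). The ranges overlapped, and the call ended when any 1 of 9 libraries was left out, CR-NIA replicates 5, 7, 8 and 9 and MF-NIA replicates 1, 3, 4, 5 and 6, with an adjusted p of up to 0.0982. It also ended with scores centred on the median, where the difference was -0.14 (limma adjusted p = 0.381).

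Rps27l, the paralog of Rps27 that p53 activates in human cells, had 5.77, 6.19 and 6.60 in CR-NIA and 5.59, 5.63 and 5.96 in MF-NIA livers. The highest MF-NIA value, replicate 1, lay within the CR-NIA range. The difference was 0.56 ± 0.11 (SE; limma adjusted p = 0.00094), and its adjusted p reached 0.146 under the quantile and neqc scalings. Rps27 itself was higher by 0.70 ± 0.16 (SE; limma adjusted p = 0.00272). Rpl22l1 and Rpl22 differed by 0.26 and 0.07, Rpl7l1 by -0.21 and Rps19bp1 by 0.14, with limma adjusted p of 0.422, 0.718, 0.166 and 0.239.

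On WIS most differences between CR and MF livers were again positive, and 2 of the 58 genes were called higher and none lower, where 3.37% of all genes were called and 1.36% were called higher. The median difference was 0.27 over the 58 genes and -0.02 over all genes, and 53 of the 58 differences were positive, where 46.1% of all genes had a positive one. In unadjusted p, 21 of the 58 (36.2%) were under 0.05, where 20.4% of all genes were. Among the 43 genes with a mean level over 4 all differences were positive with a median of 0.34. The 651 other genes above that level had a median of 0.13, and 70.4% of them were positive. With only 4 MF-WIS livers the count turned on single libraries: it was 1 without CR-WIS replicate 1 or any 1 of the 4 MF-WIS replicates, and 10 without AL-WIS replicate 1, which enters only through the shared spread. Without the 3 libraries that stand apart, among them the MF-WIS liver with the highest median of these genes, it was 14. The array medians of kept probes were 0.47 to 0.69 on CR-WIS and 0.59 to 0.68 on MF-WIS arrays, and no marker list of another cell type held a call.

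Rps3a1 had 4.21, 4.45 and 4.68 in CR-WIS livers, against 3.90, 3.73, 3.91 and 4.02 in the 4 MF-WIS livers. The groups did not overlap. The difference was 0.58 ± 0.14 (SE; limma adjusted p = 0.0159), and without MF-WIS replicate 2 the adjusted p was 0.0509. Rpl28, a large-subunit protein of animal and plant ribosomes, had 4.89, 5.50 and 5.86 in CR-WIS and 4.8, 5.04, 4.8 and 5.04 in MF-WIS livers. Only CR-WIS replicate 6, at 4.89, lay within the MF-WIS range. Its difference was 0.58 ± 0.15 (SE; limma adjusted p = 0.0267). Without CR-WIS replicate 1 or MF-WIS replicate 1, 3 or 4, and with the quantile or neqc scalings, Rpl28 was no longer called (adjusted p of at most 0.0848 without 1 library).

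Rps9 had 5.83, 6.08 and 6.22 in CR-WIS and 5.48, 5.45, 5.71 and 5.84 in MF-WIS livers, a difference of 0.44 ± 0.14 that was not called (SE; limma adjusted p = 0.0697). Of 10 CR-WIS livers 9 lay above all 4 MF-WIS livers. Rps27 and Rps16 did not overlap between the groups either, with all CR-WIS above all MF-WIS livers, and 3 of the 58 genes did so where 0.691% of all genes did. Their differences of 0.54 and 0.41 had limma adjusted p of 0.0787 and 0.117. Rpl5, Rplp1 and Rps6 had 0.17, 0.29 and 0.24, and Rplp0 -0.01, all not called.

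**Figure D5:**
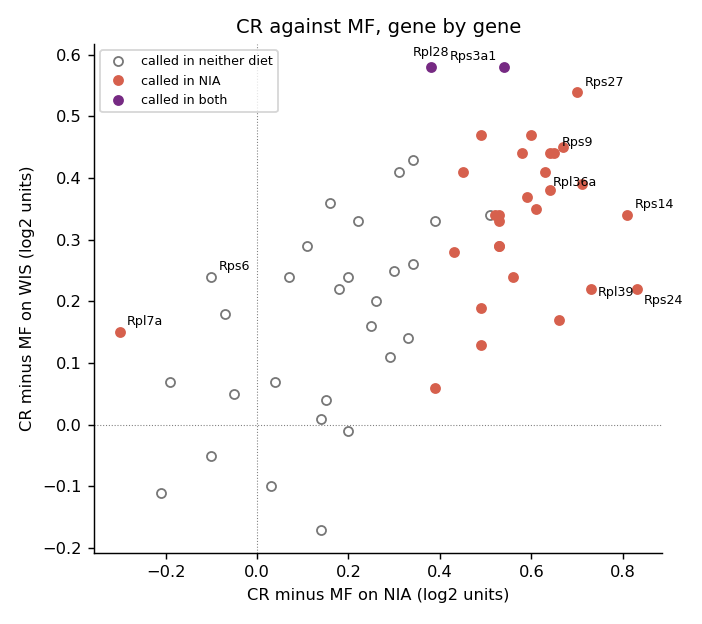
Difference between CR and MF livers of each of the 58 genes on NIA (horizontal) and on WIS (vertical), in log2 units, coloured by the diet in which the gene was called. In the upper right, 48 genes are positive on both diets, and Rps3a1 and Rpl28, the 2 genes called on WIS, are among the 29 called higher on NIA.

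The diets shared no arrays in this comparison. Both genes called higher on WIS were among the 29 called higher on NIA, and 48 of the 58 genes were positive on both diets and 2 negative on both. On NIA the call of Rpl28 was narrow, with a difference of 0.38 ± 0.13 (SE; limma adjusted p = 0.0496). Of the 651 other genes with a mean level over 4, 82.2% were positive on NIA and 70.4% on WIS. The share of other genes positive on both diets was not counted. Whether the difference between CR and MF itself depended on the diet was tested as an interaction, WIS minus NIA, and 0 of the 58 genes and 0% of all genes were called by limma. At an unadjusted p under 0.05 there were 6 of the 58 genes and 8.6% of all genes. The smallest p among the 58 were those of Rpl7a (0.45 ± 0.15), Rps19bp1 (-0.30 ± 0.11) and Rps24 (-0.61 ± 0.25), given as difference and SE, with limma adjusted p of 0.4, 0.454 and 0.482.

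Between MF and AL livers most differences of the ribosomal protein genes were negative, and few passed the test. On NIA 1 of the 58 genes, Rps9, was lower and none higher, where 1.96% of all genes were called and 0.867% were called lower. The median difference was -0.17 over the 58 genes and 0.04 over all genes, and 51 of 58 were negative. Differences were positive in 58.3% of all genes and in 22.9% of the 651 other genes with a mean level over 4. Rps9 had 5.15, 5.45 and 5.77 in MF-NIA livers, against 6.17, 5.93, 5.84, 5.86 and 6.07 in the 5 AL-NIA livers. All MF-NIA livers lay below all AL-NIA livers. The difference was -0.54 ± 0.15 (SE; limma adjusted p = 0.0423). It was not called without any 1 of AL-NIA replicates 1 to 5 or MF-NIA replicates 1, 2, 3 and 6, with adjusted p of up to 0.134, nor under 5 other alternatives, quantile-normalized scores and the mean of probes among them. The count was 0 without AL-NIA replicate 1, 3, 4 or 5 or MF-NIA replicate 1, 2, 3 or 6, 2 without MF-NIA replicate 4 or AL-WIS replicate 1, and 8 without the 3 libraries that stand apart.

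Rpl5 had 5.34, 5.82 and 6.16 in MF-NIA and 6.36, 6.42, 6.08, 6.46 and 6.19 in AL-NIA livers, and its difference of -0.53 ± 0.16 was not called (SE; limma adjusted p = 0.0655). Of the 6 MF-NIA livers 5 lay below all AL-NIA livers. Rps19bp1, the SIRT1 regulator, had -0.48, -0.32 and -0.18 in MF-NIA and -0.15, -0.14, 0.03, 0.08 and 0.03 in AL-NIA livers. The groups did not overlap, but the difference of -0.29 ± 0.09 was not called (SE; limma adjusted p = 0.0682). Of the 58 genes 3, Rps9, Rps14 and Rps19bp1, had all MF-NIA below all AL-NIA livers, where 1.97% of all genes did. Hepatocyte markers had a median of -0.40 in this comparison, with no call, and their part in it was not tested. Other genes with a mean level over 4 also had a negative median in this comparison, -0.16 over 651 genes against -0.23 over 43 ribosomal protein genes, and after quantile normalization these medians were -0.01 and -0.06.

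On WIS none of the 58 genes was called between MF and AL, where 0.0377% of all genes were. At an unadjusted p under 0.05 there were 14 of the 58 (24.1%) and 14.8% of all genes. Without MF-NIA replicate 1 or AL-WIS replicate 2, 1 gene was called. The median difference was -0.22, and 54 of the 58 were negative, among them all 22 small-subunit core genes, with a median of -0.30. Those 22 include Rps15a and Rpsa, whose probes were mostly near background. With 1 library left out, the median of the 58 ran from -0.29 to -0.11. Over all genes the median was 0.01, and over the 651 other genes with a mean level over 4 it was 0.06, with 52% and 61.9% positive. Rps3a1 had 3.90, 3.73, 3.91 and 4.02 in MF-WIS livers, against 4.26, 4.54 and 4.89 in AL-WIS livers. The groups did not overlap, and the difference of -0.68 ± 0.15 was not called (SE; limma adjusted p = 0.0827). Rps9 and Rps3 had -0.48 and -0.45 with limma adjusted p of 0.176 and 0.195. Of the 58 genes 3, Rps3a1, Rps27 and Rpl35a, lay wholly lower in MF-WIS, where 0.666% of all genes did. Macrophage and neutrophil markers had medians of -1.29 and -0.84 in this comparison with no call, and their part in it was not tested.

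The interaction of MF against AL with diet called 0 of the 58 genes and 0% of all genes. At an unadjusted p under 0.05 there were 1 of the 58 and 9.69% of all. The single gene was Rps19bp1, whose difference on WIS minus that on NIA was 0.49 ± 0.13 (SE; limma adjusted p = 0.352). In MF against AL 48 of the 58 genes were negative on both diets. The share of other genes negative on both was not counted.

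In CR against AL on NIA, 7 of the 58 genes were higher and 2 lower (15.5% called), where 11.1% of all genes were called, 4.8% higher and 6.32% lower. Unadjusted p lay under 0.05 in 17 of the 58 (29.3%) and in 26.1% of all genes, so both shares were near those of all genes. The median difference was 0.17, and -0.01 over all genes. The 7 higher genes were Rps27l, Rpl34, Rps27, Rpl38, Rpl39, Rpl30 and Rpl22l1, and the 2 lower ones Rpl7l1 and Rpl7a, so 3 of the 4 paralogs were called. The count was 4 or 5 without any 1 of AL-NIA replicates 2 and 3 and CR-NIA replicates 6, 8 and 9, and 14 without AL-WIS replicate 1 or the library labelled CR-NIA replicate 1. Without the 3 libraries that stand apart 16 were higher and 2 lower. Macrophage markers had a median of -0.69 with no call among 10, and hepatocyte markers one of 0.05 with 1 of 12 higher.

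Rps27l had 5.77, 6.19 and 6.60 in CR-NIA livers and 5.65, 5.50, 5.86, 5.65 and 5.78 in AL-NIA livers. The ranges overlapped at the lower end of CR-NIA. The difference was 0.55 ± 0.12 (SE; limma adjusted p = 0.00315), and Rps27l stayed called in all alternatives run for it, with an adjusted p of at most 0.0246. Those held no scaling of the signals, because the AL-NIA signal columns were not used. Between CR and MF on NIA such scalings ended its call, at limma adjusted p of 0.0634 with quantile-normalized signals and 0.0871 after neqc. Rps27 had 5.37, 6.14 and 6.48 in CR-NIA and 5.68, 4.74, 5.4, 5.6 and 5.36 in AL-NIA livers, with overlapping ranges and a difference of 0.68 ± 0.17 (SE; limma adjusted p = 0.00778). Rpl34 was higher by 0.64 ± 0.14 (SE; limma adjusted p = 0.00331).

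Rpl38, known in mice for its part in the translation of Hox mRNAs, had 6.66, 7.08 and 7.59 in CR-NIA and 6.63, 6.05, 6.37, 6.75 and 6.69 in AL-NIA livers. Of the 9 CR-NIA livers 7 lay above all AL-NIA livers. The difference was 0.61 ± 0.17 (SE; limma adjusted p = 0.0181, or 0.0741 without AL-NIA replicate 2), and the other kept probe of Rpl38 gave 0.32 and was not called. Rpl39 and Rpl30 were higher by 0.55 and 0.40, with limma adjusted p of 0.0283 and 0.0366. The Rpl39 call ended without any 1 of AL-NIA replicates 2, 3 and 5 or CR-NIA replicates 6, 8 and 9 (adjusted p up to 0.0948). The Rpl30 call ended without any 1 of AL-NIA replicates 2 to 5 or CR-NIA replicates 4 and 6 to 9 (adjusted p up to 0.0927). Both also ended with quantile-normalized scores, at limma adjusted p of 0.0806 for Rpl39 and 0.0543 for Rpl30, and with no detection filter, at 0.0508 and 0.0621.

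Rpl22l1, a paralog whose protein can stand in for Rpl22, had 0.27, 0.88 and 1.78 in CR-NIA livers and 0.95, 0.06, 0.32, 0.06 and 0.11 in AL-NIA livers. Its difference of 0.64 ± 0.21 (SE; limma adjusted p = 0.0475) ended in 29 of the 52 alternatives run for it, among them the omission of any 1 of AL-NIA replicates 2 to 5 or CR-NIA replicates 2 to 9, and Rpl22 differed by 0.14 and was not called. Rpl7l1, which takes part in the assembly of the large subunit, had 1.25, 1.54 and 1.90 in CR-NIA and 1.95, 2.02, 1.84, 1.74 and 1.93 in AL-NIA livers, with overlap. Its difference was -0.38 ± 0.11 (SE; limma adjusted p = 0.0227, or 0.0595 without AL-NIA replicate 2), and its other kept probe gave -0.08. The Rpl7l1 call also ended with quantile-normalized scores, median-centred scores and the mean of probes, with limma adjusted p of 0.0525, 0.0528 and 0.0822. Rpl7a had a difference of -0.32 ± 0.11 (SE; limma adjusted p = 0.0479), which ended in 32 of the 52, among them the omission of any 1 of AL-NIA replicates 1 to 4 or CR-NIA replicates 3 to 9, with an adjusted p of up to 0.146.

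On WIS none of the 58 genes differed by the test between CR and AL, although 14.3% of all genes were called. At an unadjusted p under 0.05 there was 1 of the 58 genes (1.72%) and 30.9% of all genes. The 58 differences lay between -0.16 and 0.23 around a median of 0.04, while 12.1% of the 651 other genes with a mean level over 4 were higher. With 1 library left out, the median of the 58 ran from -0.03 to 0.15 on WIS, and from 0.12 to 0.22 on NIA. The smallest p were those of Rps27l (0.23 ± 0.11), Rps15 (0.16 ± 0.12) and Rpl7l1 (-0.12 ± 0.10), as difference and SE, with limma adjusted p of 0.159, 0.385 and 0.434. In the same comparison 8 of 10 macrophage, 4 of 7 neutrophil and 7 of 10 stellate cell markers were lower in CR, and none was higher. The interaction of CR against AL with diet called 0 of the 58 genes and 0.0377% of all genes. At an unadjusted p under 0.05 there were 11 of the 58 genes (19%) and 10.1% of all. Rpl34, Rps3 and Rps27 had the smallest p, with differences of -0.63 ± 0.19, -0.50 ± 0.18 and -0.60 ± 0.23 (SE) and limma adjusted p of 0.227, 0.342 and 0.374.

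Between the diets, only the restricted mice held calls. They also had the most arrays, 10 on WIS and 9 on NIA, against 4 and 6 under MF and 6 and 5 under AL. Under CR 6 of the 58 genes were lower on WIS than on NIA and none was higher, where 2.8% of all genes were called and 1.31% were called lower. The median difference was -0.10 over the 58 genes and 0.02 over all genes. Rpl36a had 4.59, 4.73 and 4.94 in CR-WIS livers, against 4.83, 5.33 and 5.59 in CR-NIA livers. Except for the library labelled CR-NIA replicate 1, at 4.83, every CR-NIA liver lay above every CR-WIS liver. The difference was -0.51 ± 0.11 (SE; limma adjusted p = 0.00599), and 0.0708 was the adjusted p after quantile normalization of the scores. Rps27l had 5.59, 5.80 and 6.04 in CR-WIS and 5.77, 6.19 and 6.60 in CR-NIA livers, with overlap, and a difference of -0.43 ± 0.10 (SE; limma adjusted p = 0.0123) that stayed called in all alternatives run for it.

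Rpl34, Rps24, Rps3 and Rpl39 were lower on WIS by differences of -0.42, -0.53, -0.40 and -0.47, with limma adjusted p of 0.0381, 0.0382, 0.0409 and 0.0498. Of the 55 alternatives run for each, 18, 18, 20 and 35 ended these calls, in that order. Each of the 4 ended without any 1 of CR-NIA replicates 4, 5, 6, 8 and 9 or CR-WIS replicates 3, 4, 6, 7, 9 and 10. The other kept probes of Rps24 and Rps3 gave -0.08 and -0.13 and were not called (limma adjusted p over all probes of 0.722 and 0.527). The direction of the called set turned with the scaling. It was 2 higher and 1 lower with quantile-normalized scores, 4 higher and 3 lower with quantile-normalized signals, 3 higher and 2 lower with neqc, and 0 higher and 15 lower with median-centred signals. The count was 2 or 3 without any 1 of CR-NIA replicates 2 and 4 to 9 or CR-WIS replicates 3, 4, 6, 7, 9 and 10. The kept-probe median was 0.47 to 0.69 on CR-WIS and 0.35 to 0.63 on CR-NIA arrays.

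Under MF and under AL none of the 58 genes was called between WIS and NIA, where 0% and 0.0251% of all genes were. At an unadjusted p under 0.05 there were 2 and 4 of the 58 genes, where 10.6% and 13.2% of all genes were. The median differences were 0.02 under MF and 0.04 under AL. Under MF, Rps19bp1 had -0.14, -0.14, 0.06 and 0.14 in MF-WIS livers, against -0.48, -0.32 and -0.18 in MF-NIA livers. It did not overlap, alone among the 58 genes, where 0.993% of all genes lay wholly higher on WIS, and its difference of 0.30 ± 0.09 was not called (SE; limma adjusted p = 0.271). Rpl4 and Rpl36a had -0.34 and -0.29 under MF with limma adjusted p of 0.461 and 0.494. Under AL, Rps19bp1, Rpl30 and Rpl36a had -0.19, 0.30 and -0.28, with limma adjusted p of 0.366, 0.367 and 0.379.

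Of the 58 genes 12 had more than 1 kept probe, and for some the probes disagreed. Rpl29 had 2 probes detected on all 34 arrays, of which the brighter gave 0.45 and the dimmer -0.37 between CR-NIA and MF-NIA livers, both called over all probes with adjusted p of 0.0235 and 0.0221. Rpl23 had 4 kept probes: the brightest gave 0.16 in that comparison, one of the others gave 0.67 with an adjusted p of 0.00234, and another -0.25 with 0.0999. Rps24's second probe gave 0.20 where the brightest gave 0.83. Rps3's probes gave 0.52 and 0.41, and both were called.

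Counts in the pathway lists in CR against MF are to be read against 15.3% of all genes called on NIA and 3.37% on WIS. Fau, whose fusion protein yields the small-subunit protein S30 and which the name rule leaves out, differed by 0.39 ± 0.15 on NIA and 0.49 ± 0.17 on WIS between CR and MF livers and was not called (SE; limma adjusted p = 0.072 and 0.0847). Of 62 ribosome biogenesis genes measured 2 were higher and 1 lower on NIA, and 2 higher and 2 lower on WIS, with medians of -0.01 and -0.03. Pes1, needed for maturation of the large subunit's rRNA, was lower on both diets, by differences of -0.67 ± 0.19 on NIA and -1.23 ± 0.21 on WIS (SE; limma adjusted p = 0.0147 and 0.00199). Mrto4, an assembly factor of the large subunit's stalk, was higher on both, by 0.33 and 0.41 with limma adjusted p of 0.0324 and 0.0499.

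Of 17 elongation factors and other genes with TOP mRNAs 4 were higher and 4 lower on NIA, with a median of 0.06. Naca, a chaperone of nascent chains at the tunnel mouth, was higher by 0.57 ± 0.12 (SE; limma adjusted p = 0.00135), and Hnrnpa1 and Nap1l1 were lower, with differences of -0.74 and -0.70 and limma adjusted p of 0.00211 and 0.00279. Of 26 mTORC1 pathway genes 3 were higher and 4 lower on NIA, with a median of -0.04. Lamtor2 and Lamtor4, parts of the Ragulator complex that anchors mTORC1 at the lysosome, were higher by 0.80 ± 0.11 and 0.71 ± 0.15 (SE; limma adjusted p = 1.52e-05 and 0.00102). Pdcd4, a translation inhibitor degraded on mTORC1 activity, was lower by a difference of -0.62 ± 0.17, and Rheb, the GTPase that activates mTORC1, by -0.41 ± 0.12 (SE; limma adjusted p = 0.00997 and 0.0155). Of 9 RNA polymerase I genes 1, Polr1d, was higher by 0.38 (limma adjusted p = 0.0492). On WIS no gene of the last 3 lists was called between CR and MF, with medians of 0.09 for the elongation and TOP genes, 0.03 for the mTORC1 genes and 0.19 for the polymerase I genes.

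In CR against AL 11.1% of all genes were called on NIA and 14.3% on WIS. On NIA 3 of 62 biogenesis genes were higher and 3 lower, among them Sbds, which readies the large subunit for translation, higher by 0.37 ± 0.08, and Bop1, a partner of Pes1, lower with a difference of -0.54 ± 0.13 (SE; limma adjusted p = 0.00271 and 0.0073). Of the 26 mTORC1 genes 5 were higher and 3 lower, Lamtor4 at 0.84 ± 0.16 and Fnip1, a partner of folliculin, at 0.91 ± 0.18 (SE; limma adjusted p = 0.000777 and 0.00147). On WIS 2 biogenesis genes were higher and 1 lower, Sbds at 0.30 and Pes1 at -0.85, with limma adjusted p of 0.00836 and 0.0052. Of the 26 mTORC1 genes 3 were higher on WIS and none lower, Deptor, an inhibitor within the mTOR complexes, at 0.58, Nprl3 at 0.25 and Eef2k at 0.24, with limma adjusted p of 0.0217, 0.0367 and 0.0455. In MF against AL on NIA, where 1.96% of all genes were called, 2 of the 62 biogenesis genes, Bop1 and Rrp12, were lower, with differences of -0.57 and -0.60 and limma adjusted p of 0.0376 and 0.0423, and none was higher. Of the 26 mTORC1 genes 1, Flcn, was higher by 0.53 (limma adjusted p = 0.0481) and none lower. In the same comparison 3 of the 17 TOP genes were lower and 1 higher, with Eif3f at -0.45 ± 0.10 and Naca at -0.51 ± 0.14 (SE; limma adjusted p = 0.0162 and 0.043). On WIS no gene of these 4 lists was called between MF and AL.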

How the data were processed

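Liver RNA was hybridised with 1 array per sample, and groups were taken from the labels of the 40 samples given; the series text speaks of 48 arrays. The main values are the deposited score of each probe on each array, which by its values has mean 0 and SD 1 on every array; no source used here says how it was computed. A second deposited table gives, per the file headers, a signal intensity on a linear scale and a detection p-value for each probe. GenomeStudio 2011.1 is named in the submitters' processing notes. The signal columns name groups, not samples, and 6 AL-NIA columns, facing 5 labelled samples, were left unused. Scalings of the signals therefore rest on 34 arrays and were not run for comparisons that use AL-NIA.

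Scores were multiplied by 1.51, the median SD of log2 signal over 34 columns. Probes with a detection p under 0.01 on at least 4 of those arrays were kept (11334 of 25697). Names come from the platform annotation (23978 probes with 1 gene symbol, 1719 with none, 0 with several), and the brightest probe stood for its gene. All 40 arrays and 7958 genes entered a fit of group means in limma 3.58.1 under R 4.3.3, and each adjusted p printed is limma's, by Benjamini-Hochberg within each of 9 comparisons and 3 interactions. The code was tested on simulated data. The scores of 34 samples matched a column of signals from their own group to within 0.01; those of the library labelled CR-NIA replicate 1 came no closer than 3.17, and it was kept under its label. No samples had identical scores (highest correlation 0.994). Differences are on the rescaled log2 scale without background subtraction and understate changes of dim genes.

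The genes, lists, groups and tests were chosen with earlier results of these data known. By rule, the genes named in each comparison are up to 10 called members a direction by smallest p, or the 3 smallest p where fewer than 3 passed, 3 per interaction, the stalk, 5S, S6 and paralog genes, members with disagreeing probes, and up to 4 called genes per pathway list; other names were added after their values were seen. Alternatives were other scalings, filters, probe rules, array weights, moderation, samples in the fit, a replicate block and omitted libraries.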

Additional observations from a re-analysis of the deposited data

Results flagged for a closer look

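In 77 groups of values, the median of the ribosomal protein genes in each group of livers and the levels of the named genes in the groups compared, a Dixon test set the most extreme liver against the rest, and 5 livers stood apart. Chance alone gives about 1 in 20. In MF-WIS the median of the 58 genes was -0.01 in replicate 4, and the nearest of the others had -0.26. Rpl28 in CR-WIS was 4.89 in replicate 6, below the next liver at 5.39. Rpl36a in CR-NIA was 4.83 in the library labelled replicate 1, below the next at 5.25. Rps27l in MF-NIA was 5.96 in replicate 1, above the next at 5.65. Rpl22l1 in AL-NIA was 0.95 in replicate 1, above the next at 0.32. MF-WIS replicate 4 and the library labelled CR-NIA replicate 1 are among the 3 libraries left out together in 1 alternative.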

How the results depend on the processing

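Counts are of the 58 genes called by limma. Between WIS and NIA under AL and under MF, and in the 3 interactions, the count was 0 in all alternatives run. For CR against MF on NIA, 30 in the main analysis, it was 10 with quantile-normalized scores, 17 with quantile-normalized signals and 17 after neqc, and 23 to 35 without 1 replicate. For CR against MF on WIS, with 2, each of these 3 scalings gave 1, median-centred signals 4, array weights 26, only the groups compared 11, omission of the 3 libraries that stand apart 14, that omission with quantile scaling 13, and 1 to 10 without 1 replicate. For MF against AL on NIA, with 1, scores centred on the median gave 5, no detection filter, the mean of probes, and trended and robust moderation 0 each, array weights 13, only the groups compared 4, the 3 libraries' omission 8 and with quantile scaling 5, and 0 to 2 without 1 replicate. For MF against AL on WIS, with 0, array weights gave 1, and 0 to 1 without 1 replicate. For CR against AL on NIA, with 9, no detection filter gave 5, array weights 20, the 3 libraries' omission 18 with or without quantile scaling, and 4 to 14 without 1 replicate. For CR against AL on WIS, with 0, the omission with quantile scaling, which was chosen after seeing the data, gave 1. For WIS against NIA under CR, with 0 higher and 6 lower, the direction of most calls reversed to 2 of 3 higher with quantile-normalized scores, 4 of 7 with quantile-normalized signals and 3 of 5 after neqc. There, median-centred signals gave 15, no detection filter 2, array weights 12, the 3 libraries' omission 11, with quantile scaling 13, and 2 to 7 without 1 replicate. The cause of these shifts was not tested, except that fewer samples or other genes enter by construction. Among single named genes, 2606 results kept direction and side of the threshold, 223 lost the call, 22 gained it and 0 reversed. Correlations between samples with the same replicate number were mixed and did not settle whether these numbers pair the samples. Under CR 0 of 9 pairs correlated above 0.1 between WIS and NIA. Between CR and MF it was 4 of 6 on NIA and 0 of 4 on WIS, and between MF and AL 3 of 5 on NIA. With the replicate number as a block the counts were 26 (CR against MF, NIA), 0 (CR against MF, WIS), 4 (CR against AL, NIA), 0 (MF against AL, NIA) and 2 (WIS against NIA, CR). Calls lost under the block include Rpl7a (CR against MF, NIA; adjusted p = 0.0664), Rps3a1 (CR against MF, WIS; 0.113), and Rpl39, Rpl30 and Rpl7l1 (CR against AL, NIA; 0.0916, 0.163 and 0.0889). Signal over background limits Rpl21, Rps15a and Rpsa, and 4 MF-WIS livers limit every comparison that uses them.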
